A study of Mus musculus with 6 samples.

Results

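The fibroblast growth factor (FGF) ligands and receptors described here are 10 genes chosen by symbol from a deposited table of 26231 genes. The ligands were Fgf2, Fgf5, Fgf7, Fgf10, Fgf18 and Fgf21, and the receptors were Fgfr1, Fgfr2, Fgfr3 and Fgfrl1. All 10 had a row in the table, and 6 of them passed the filter on low values used for testing, which was at least 1 RPKM in at least 3 of the 6 libraries. RPKM is reads scaled to exon length and to library size, so it allows levels to be set side by side between genes.

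FGFs bind tyrosine kinase receptors at the cell surface together with heparan sulfate chains, and the bound receptor signals through the adaptor FRS2 to the RAS and MAP kinase route. That route switches on its own inhibitors, among them the Sprouty and Spred proteins and the dual-specificity phosphatases, and transcription factors such as ETV4 and ETV5. Embryonic mesenchyme is known as a source of FGF7 and FGF10, which act mainly on neighbouring epithelium through the IIIb splice form of FGFR2, while fibroblasts themselves respond to FGF2 and FGF18 through FGFR1 and the IIIc forms.

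RNA was measured in immortalized mouse embryonic fibroblasts (MEFs) of the FVB strain, in 3 libraries labelled MEF WT and 3 labelled MEF Nf2 KO. All cells came from embryos with Nf2 alleles flanked by loxP sites (Nf2 fl/fl) and carried SV40 large T antigen. The control line had received a GFP lentivirus and the other line a Cre and GFP lentivirus, each driven by the CMV promoter. The embryos were about 14 days old by the labels. Cells were grown with 10% FBS and kept without serum for 24 h before RNA was taken. Each group is a single line, and nothing says that its 3 libraries came from separate cultures, so the p-values measure the spread between these libraries only. Same-numbered libraries of both lines share a mark (A, B or 2018).

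Depths worked out from the values ran from 13462402 to 73093045 reads per library, and the libraries marked 2018 were the deepest. Nf2, the targeted gene, stood at 14.3, 13.7 and 13.1 RPKM in the MEF WT libraries and at 15.4, 12.9 and 13.9 RPKM in those labelled MEF Nf2 KO. Its level was therefore not lower under the KO label (log2 fold change 0.03, SE 0.10, limma adjusted p = 0.987). This is a value over the whole gene and does not check the flanked part. Every direction below is that of the libraries labelled MEF Nf2 KO against those labelled MEF WT. Of 12 fibroblast markers, 11 passed the filter, Dcn only through the WT-labelled libraries (0.133 RPKM or less under the KO label), so it is given no test. Of the other 10, 2 fell in limma, Fn1 and Pdgfra (adjusted p = 0.0390 and 0.0329), where 0.578% of all genes tested were called lower. With the replicate number as a block 5 of the 10 passed, both of these with Thy1 and Col3a1 as lower and Twist1 as higher (limma adjusted p = 0.00716, 0.0274 and 0.0289 for the added genes), where 4.54% and 2.99% of genes passed in those directions. The summed fibroblast marker level was 1888 to 2599 RPKM under the WT label and 1481 to 1926 RPKM under the KO label. Pdgfra, a receptor that marks mesenchyme, stood at 12.3, 5.22 and 11.7 RPKM against 1.42, 0.657 and 0.962 RPKM. Epithelial markers summed to 23.0 to 40.7 against 12.8 to 29.7 RPKM, nearly all of it Krt19, with Epcam at 0.216 RPKM or less and Esrp1 at 0.00651 RPKM or less. Among them Esrp2, a splicing regulator of epithelial cells, stood at 0.864, 0.708 and 0.741 RPKM against 1.84, 1.67 and 1.43 RPKM, and passed the filter only through the KO-labelled libraries, so it is given no test. Macrophage markers summed to 6.98 to 9.01 against 5.97 to 7.46 RPKM, nearly all Cd68, with Ptprc at 0.00896 RPKM or less. Endothelial markers summed to 1.46 to 3.89 against 1.52 to 4.45 RPKM (mostly Kdr), skeletal muscle markers to 0.955 to 6.61 against 0.841 to 3.09 RPKM (mostly Acta1), neural markers to 1.44 to 2.67 against 0.925 to 1.77 RPKM, and adipocyte markers to 0.270 to 0.456 against 0.287 to 0.438 RPKM. The part of these marker levels in the results below was not tested. In bulk RNA, fewer cells of a type and less RNA per cell cannot be told apart.

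Fgf7 was the most abundant of the 10 genes in both lines, followed by Fgfr1, while Fgf10 and Fgfrl1 came next. Over the WT-labelled libraries the order by mean level was Fgf7, Fgfr1, Fgf10, Fgfrl1, Fgfr2, Fgf2, Fgf18, Fgfr3, Fgf21 and Fgf5. In that order Fgf10 and Fgfrl1 overlapped between libraries, as did Fgfr2 and Fgf2 and each neighbouring pair from Fgf18 down. Over the KO-labelled libraries Fgfr1, Fgfrl1 and Fgf10 overlapped in a chain behind Fgf7, and Fgf18 stood above Fgf2, with no overlap between these last genes. The plot of levels by library shows this order.

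**Figure D1:**
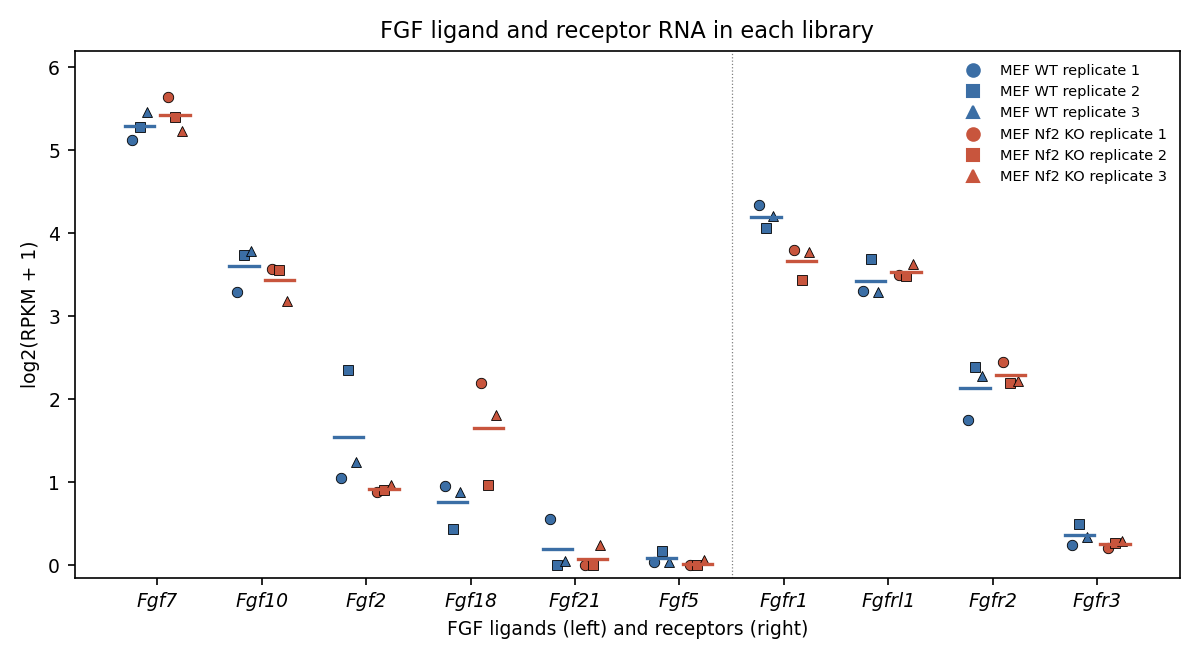
RNA level of each FGF ligand (left of the dotted line) and receptor (right) as log2(RPKM + 1) in each of the 6 libraries, with the line label in colour, the replicate number as the marker shape and the mean of 3 libraries as a bar. The 3 KO-labelled libraries lie below the 3 WT-labelled ones for Fgfr1 and Fgf2 and above them for Fgf18, and for every other gene the lines overlap.

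Of the 6 members that passed the filter, Fgf2 did so only through the WT-labelled libraries, so it is given no test. None of the others passed the threshold in limma without a block (adjusted p under 0.05). Of all 11067 genes tested 1.06% did, 0.479% as higher and 0.578% as lower. Of these other members only Fgfr1 had an unadjusted p under 0.05, against 9.91% of all genes. Limma's voom, run on the reads behind the RPKM values, also called 0 of them, against 1.32% of genes. Once the replicate number entered as a block, 1 of them passed, Fgfr1, which was lower, where 4.54% of genes tested passed as lower and 7.53% in either direction. The 3 libraries under the KO label lay wholly below those under the WT label for Fgfr1, as they did for 7.52% of genes tested. They did so for Fgf2 too, but Fgf2 passed the filter only through the WT-labelled libraries, so its lines could not overlap. The median log2 fold change of the 6 was -0.03, beside -0.01 for all genes tested, but it includes Fgf2, whose direction the filter fixed. Among the others, Fgf7, Fgfr2 and Fgfrl1 were higher (0.13, 0.15 and 0.11) and Fgf10 and Fgfr1 lower (-0.17 and -0.53).

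Fgf7, also called keratinocyte growth factor, is a mesenchymal ligand for epithelial cells and lies on chromosome 2 at 126034658 to 126091185, plus strand (RefSeq, GRCm38.p6). Its level put it above 90.0% of the genes tested. The 250 bases upstream of its RefSeq start, chr2:126034408-126034657 on the plus strand (GRCm38.p6), are shown because it is the dominant ligand. They hold 43.6% G and C and 6 CpG dinucleotides, beside medians of 52.4% and 6 over 32851 starts. The letters of none of the 4 motifs searched, given below with Fgf18, occur in them.
Fgf7 upstream: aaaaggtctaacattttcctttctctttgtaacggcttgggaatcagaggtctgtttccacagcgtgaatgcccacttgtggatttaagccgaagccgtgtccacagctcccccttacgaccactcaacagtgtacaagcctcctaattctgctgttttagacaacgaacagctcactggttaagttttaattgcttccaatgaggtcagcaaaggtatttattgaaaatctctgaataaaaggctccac

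Fgf7 stood at 34.0, 38.0 and 43.2 RPKM in the MEF WT libraries 1 to 3. Under the KO label it stood at 49.1, 41.2 and 36.8 RPKM. The lines overlapped, and the direction differed between the pairs, higher in replicates 1 and 2 and lower in replicate 3. The means were 38.4 ± 4.58 and 42.3 ± 6.25 RPKM (SD, n = 3), and the log2 fold change of RPKM + 1 was 0.13 (SE 0.14, 95% interval -0.20 to 0.47, limma adjusted p = 0.924). Between 1487 and 8727 reads per library lay behind these values.

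Fgf10 is the second mesenchymal ligand for FGFR2 IIIb and is needed for the outgrowth of limb and lung buds. The gene lies on chromosome 13 at 118714699 to 118792573, plus strand. It stood at 8.78, 12.4 and 12.8 RPKM under the WT label and at 10.9, 10.8 and 8.11 RPKM under the KO label. The lines overlapped, with replicate 1 higher and replicates 2 and 3 lower under the KO label. The means were 11.3 ± 2.21 and 9.93 ± 1.57 RPKM (SD, n = 3), with a log2 fold change of -0.17 (SE 0.17, 95% interval -0.58 to 0.25, limma adjusted p = 0.924). Fgf7 and Fgf10 were set against the summed level of the 6 member ligands and the 10 further ligand genes given below. That sum was 53.1 ± 6.78 RPKM under the WT label and 55.8 ± 8.06 RPKM under the KO label (SD, n = 3, exact permutation p = 0.8, two-sided). Fgf7 made up 72.5% ± 3.31 of that sum under the WT label and 75.9% ± 0.4996 under the KO label (SD, n = 3). The lines did not overlap in this share, and the exact permutation p was 0.1, the smallest that 3 against 3 libraries can give. Fgf10 made up 21.2% ± 1.64 and 17.8% ± 1.89 (SD, n = 3; exact permutation p = 0.2), and Fgf7 was the larger share in each of the 6 libraries, between 68.7% and 76.3%.

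Fgf18, a ligand best known from bone, cartilage and lung development, had the largest ratio between the line means among the 8 members other than Fgf5 and Fgf21, which were near the limit of detection. It lies on chromosome 11 at 33116970 to 33147400, minus strand. The 250 bases upstream of its RefSeq start, chr11:33147401-33147650 on the minus strand (GRCm38.p6), are shown because of that difference. They hold 77.2% G and C and 37 CpG, well above the medians given for Fgf7.
Fgf18 upstream: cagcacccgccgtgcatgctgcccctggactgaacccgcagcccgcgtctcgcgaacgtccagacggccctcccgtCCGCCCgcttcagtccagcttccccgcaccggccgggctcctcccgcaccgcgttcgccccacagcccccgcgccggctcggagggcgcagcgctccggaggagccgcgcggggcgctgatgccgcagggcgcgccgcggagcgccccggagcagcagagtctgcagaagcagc
The capitals mark the 1 match to a GC box. The motifs searched on both strands were TEAD (GGAATG), AP-1 (TGANTCA), GC box (GGGCGG) and TATA box (TATAAA), which occur in 12.6%, 6.75%, 32.7% and 12.4% of the 32851 windows of 250 bases. Of the 10 members, 9 had an entry, with 10 starts, and neither the TEAD nor the AP-1 letters occur in any of the 10 windows. A GC box occurs upstream of Fgf2, Fgf5, Fgf10, Fgf18, Fgf21, Fgfr3 and Fgfrl1, and the TATA box letters upstream of Fgf21 alone. Fgfr1 had no entry.

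Fgf18 stood at 0.939, 0.355 and 0.839 RPKM in the MEF WT libraries, from 15, 8 and 61 reads. Under the KO label it stood at 3.59, 0.961 and 2.51 RPKM, from 77, 22 and 218 reads. Every KO-labelled library lay above every WT-labelled one, though replicate 2 under the KO label came close to replicate 1 under the WT label. Within pairs the level was 3.82, 2.70 and 2.99 times higher, and the means were 0.711 ± 0.312 and 2.35 ± 1.32 RPKM (SD, n = 3). Of all 26231 genes, 13.8% were higher in 3 of 3 pairs and 5.56% were higher with no overlap. The exact permutation p was 0.1, the smallest possible. Fgf18 fell short of the filter, since only 2 libraries reached 1 RPKM. With no filter, its log2 fold change was 0.90 (SE 0.34, limma adjusted p = 0.623, and 0.234 with the replicate block), in fits where 0.0343% and 0.00762% of all genes passed. A filter on reads instead (at least 10 in at least 3 libraries, chosen after seeing the data) kept it in, and limma's voom then gave a log2 fold change of 1.63 (SE 0.56, adjusted p = 0.287), where 0.708% of genes passed as higher. Adding the replicate block to that fit gave 1.63 (SE 0.23, 95% interval 1.08 to 2.17, adjusted p = 0.00561), where 4.67% of 13983 genes passed as higher.

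Fgf2, basic FGF, is a broad fibroblast mitogen that leaves cells without a signal peptide. It lies on chromosome 3 at 37348477 to 37410106, plus strand. It stood at 1.07, 4.13 and 1.37 RPKM under the WT label and at 0.841, 0.879 and 0.954 RPKM under the KO label. The KO-labelled libraries lay close together and below every WT-labelled one, and among the latter replicate 2 stood far above the other two. The KO-labelled level was 78.8%, 21.3% and 69.6% of the WT-labelled level in pairs 1, 2 and 3. The means were 2.19 ± 1.69 and 0.891 ± 0.0577 RPKM (SD, n = 3), a log2 fold change of -0.63. Since the gene passed the filter only through the WT-labelled libraries, no test of this difference is given. Without replicate 2 under the WT label it was -0.23. The antisense gene Nudt6 shares 640 exon bases with Fgf2, 9.44% of its exon length, and Nudt6 itself stood between 1.04 and 1.67 RPKM. Whether the counting used strand is not stated, so reads of the shared stretch cannot be assigned with certainty.

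Fgf21 and Fgf5 were near the limit of detection. Fgf21, an endocrine ligand that needs the co-receptor beta-klotho, lies on chromosome 7 at 45613890 to 45615490, minus strand. It stood at 0.469, 0 and 0.0343 RPKM under the WT label and at 0, 0 and 0.187 RPKM under the KO label, from at most 13 reads. Fgf5, a ligand that ends the growth phase of hair, lies on chromosome 5 at 98254184 to 98277033, plus strand. It stood at 0.0297, 0.126 and 0.0261 RPKM and at 0, 0 and 0.0438 RPKM, from at most 8 reads. Both genes were listed at 0 in replicates 1 and 2 under the KO label, and no difference was detectable at this depth.

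The rest of the family was also under the filter. Of 12 further ligand genes 10 were in the table (not Fgf3 and Fgf4), and none passed the filter. The highest value among them was 0.258 RPKM, of Fgf22. Nor did any of the 4 intracellular FGF homologous factors, which bind sodium channels and not receptors in the main, where the highest value was 0.345 RPKM (Fgf11). Fgfr4 and the klotho co-receptors Kl and Klb reached at most 0.134 RPKM (Fgfr4).

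Fgfr1, the main kinase receptor of mesenchymal cells, was lower in the libraries labelled MEF Nf2 KO. It lies on chromosome 8 at 25518759 to 25575718, plus strand. Its level was 19.2, 15.7 and 17.5 RPKM in the MEF WT libraries, from 2557, 2934 and 10582 reads. Under the KO label it was 12.9, 9.87 and 12.7 RPKM, from 2308, 1880 and 9140 reads. The lines did not overlap, and the 3 pairs were alike, at 67.2%, 63.0% and 72.4% of the WT-labelled level. The means were 17.5 ± 1.78 and 11.8 ± 1.69 RPKM (SD, n = 3; exact permutation p = 0.1, the smallest possible). The log2 fold change was -0.53 (SE 0.13, 95% interval -0.85 to -0.22), with a limma p of 0.00560 and an adjusted p of 0.178. Under the block the SE was 0.07, the interval -0.70 to -0.37 and the adjusted p 0.0129. Fgfr1 also passed with limma's voom and the block (adjusted p = 0.00465), in a fit that called 10.7% of genes. Without a block, it passed when replicate 2 of both lines was left out (log2 fold change -0.49, limma adjusted p = 0.0429), in a fit that called 4.37% of all genes. It missed the threshold without replicate 1 or replicate 3 of both lines (log2 fold change -0.53 and -0.58, limma adjusted p = 0.848 and 0.944), in fits that called 0 of all genes. With the block and no filter it also missed (limma adjusted p = 0.190), in a fit that called 2 of all 26231 genes.

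Fgfr2, whose splice forms bind FGF7 and FGF10 (IIIb) or FGF2 and FGF18 (IIIc), lies on chromosome 7 at 130162451 to 130266808, minus strand. It stood at 2.37, 4.22 and 3.87 RPKM under the WT label and at 4.46, 3.59 and 3.68 RPKM under the KO label. The lines overlapped, and replicate 1 under the WT label was the lowest of the 6. The means were 3.49 ± 0.981 and 3.91 ± 0.476 RPKM (SD, n = 3), with a log2 fold change of 0.15 (SE 0.18, 95% interval -0.29 to 0.59, limma adjusted p = 0.942). The table has 1 value per gene, so the splice forms were not measured apart. Ctbp2, on the same strand, shares 314 exon bases with Fgfr2 and stood at 5.25 to 6.85 RPKM.

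Fgfr3, a receptor that restrains the growth of cartilage, lies on chromosome 5 at 33721724 to 33737068, plus strand, and was under the filter. It stood at 0.187, 0.413 and 0.271 RPKM, from 18, 56 and 119 reads, against 0.154, 0.210 and 0.224 RPKM, from 20, 29 and 117 reads. The KO-labelled value was lower in 3 of 3 pairs, but the lines overlapped (exact permutation p = 0.3, n = 3). With the filter on reads and the block, limma's voom gave a log2 fold change of -0.45 (SE 0.23, adjusted p = 0.271). The gene G630022F23Rik on the other strand shares 998 exon bases with it, 13.9% of its exon length, and stood at 0.0152 RPKM or less.

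Fgfrl1 binds FGFs and heparan sulfate but lacks a kinase domain. It lies on chromosome 5 at 108694229 to 108706950, plus strand. It stood at 8.86, 11.9 and 8.85 RPKM under the WT label and at 10.3, 10.2 and 11.3 RPKM under the KO label. The lines overlapped, and the direction was not the same in every pair. The means were 9.86 ± 1.75 and 10.6 ± 0.644 RPKM (SD, n = 3), with a log2 fold change of 0.11 (SE 0.13, 95% interval -0.20 to 0.41, limma adjusted p = 0.944).

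The receptors were also set against each other. The summed level of Fgfr1, Fgfr2, Fgfr3 and Fgfr4 was 21.3 ± 0.768 RPKM under the WT label and 16.0 ± 2.02 RPKM under the KO label (SD, n = 3, exact permutation p = 0.1). Fgfr1 made up 81.8% ± 5.79 of that sum against 73.8% ± 2.17, and Fgfr2 16.5% ± 5.04 against 24.6% ± 2.13 (SD, n = 3; exact permutation p = 0.1 for each). The ratio of Fgfr1 to the kinase-less Fgfrl1 was 2.17, 1.32 and 1.98 under the WT label and 1.26, 0.970 and 1.12 under the KO label. None of these sums, shares and ratios overlapped between the lines, and each rests at least in part on the Fgfr1 values given above. Fgfr2 enters the shares too. It stood at 2.37 RPKM under the WT label and 4.46 RPKM under the KO label in replicate 1, and was lower under the KO label in replicates 2 and 3. A p of 0.1 is the smallest that 3 against 3 libraries allow, so none could pass 0.05. The plot of differences within pairs sets the receptors beside the ligands.

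**Figure D2:**
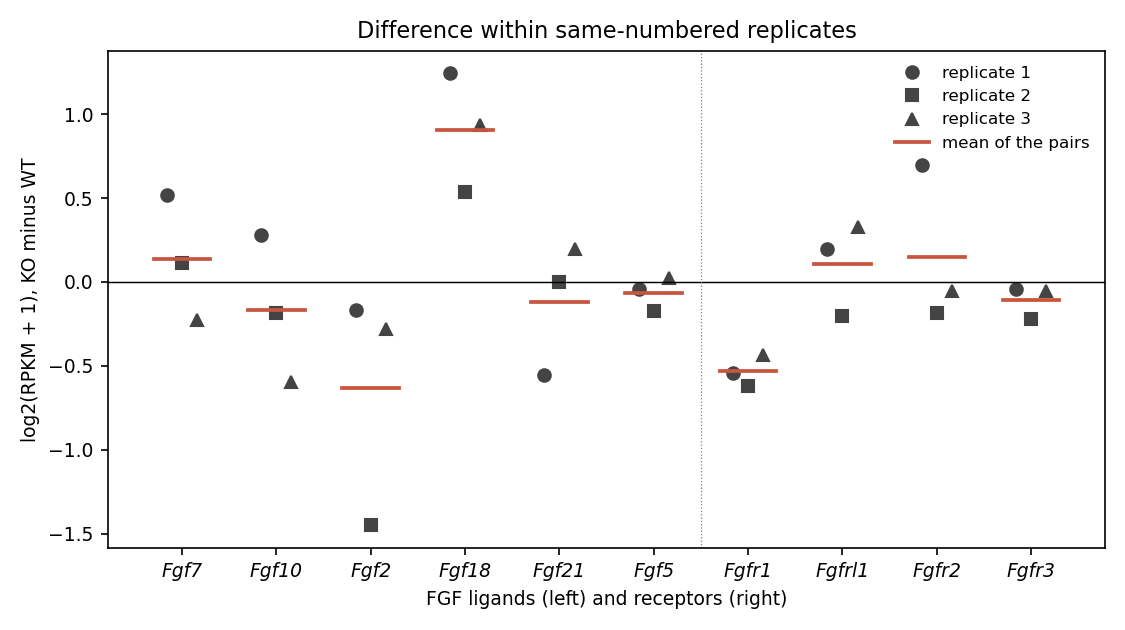
Difference in log2(RPKM + 1), KO-labelled minus WT-labelled library, within each same-numbered replicate (marker shape) for the 10 genes, with the mean of the 3 differences as a bar and 0 as the horizontal line. The 3 differences of Fgfr1 lie between -0.62 and -0.44 and those of Fgf18 between 0.53 and 1.24, while Fgf7, Fgf10, Fgfr2 and Fgfrl1 have differences on both sides of 0.

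The genes whose levels followed those of Fgf7 and Fgfr1 most closely over the 6 libraries were sought by Pearson's r of log2(RPKM + 1), among the 7023 genes that averaged 5 RPKM or more. For Fgf7 they were Tmbim4 (r = 0.968), 1810022K09Rik (0.966) and Ginm1 (0.943). For Fgfr1 they were Rufy1 (0.996), Klhl7 (0.992) and Rps6ka3 (0.987). Rufy1 stood at 7.12, 5.93 and 6.53 RPKM against 5.38, 4.24 and 5.12 RPKM. These are descriptions over 6 points that share their libraries, chosen as the highest of many.

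The pathway around the receptors was taken from 7 lists with 87 genes in the table, of which 60 were tested. In limma without a block 3 of the 60 passed, 2 higher and 1 lower, against 1.06% of all genes tested, and 16 had an unadjusted p under 0.05, against 9.91%. The replicate block brought this to 14, of which 5 were higher and 9 lower, where 2.99% and 4.54% of all genes passed in those directions. The median log2 fold change was -0.05 over the 60, beside -0.01 over all genes.

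All 3 genes called without a block were surface partners of the FGF system, a list of 18 genes of which 12 were tested. They were the glypican Gpc4, the leucine-rich repeat protein Flrt3 and the glypican Gpc1. Glypicans carry heparan sulfate chains on a lipid anchor, and FLRT3 binds FGFR1 and aids its signalling. Gpc4 rose, from 32.1, 45.5 and 32.1 RPKM to 92.9, 84.0 and 90.1 RPKM (log2 fold change 1.28, SE 0.15, limma adjusted p = 0.0259). Flrt3 rose, from 0.763, 1.78 and 1.04 RPKM to 4.11, 5.67 and 3.97 RPKM (1.36, SE 0.20, adjusted p = 0.0407). Gpc1 fell, from 22.9, 19.9 and 19.0 RPKM to 10.9, 9.44 and 12.8 RPKM (-0.85, SE 0.13, adjusted p = 0.0463). In each of these the lines did not overlap. With no filter all 3 kept their fold changes but lost the call (limma adjusted p between 0.126 and 0.157), in a fit that called 0.0343% of all genes. They also lost it with the 2018 mark as a covariate (limma adjusted p 0.0534 to 0.103), in a fit that called 62 of all genes tested. Flrt3 also lost it with quantile normalization (0.0625), median centring (0.0508) and a pseudocount of 0.1 (0.0501), and Gpc1 with a filter of 5 RPKM (0.0529). Leaving out replicate 1 or replicate 3 of either line left 0 of the list called, in fits that called 10 to 18 of all genes. Over those fits the log2 fold change was 1.20 to 1.27 for Gpc4, 1.22 to 1.44 for Flrt3 and -0.95 to -0.77 for Gpc1.

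A further 2 surface partners passed under the replicate block, which brought the list to 5 of 12, 3 higher and 2 lower. Among all genes tested 2.99% and 4.54% passed in those directions. The syndecan Sdc3, another heparan sulfate carrier, stood at 21.5, 26.6 and 24.2 RPKM against 11.4, 16.8 and 12.8 RPKM (log2 fold change -0.78, SE 0.16, limma adjusted p = 0.0945, and 0.00629 with the block). N-cadherin, Cdh2, which can bind FGFR1, stood at 28.4, 37.5 and 32.8 RPKM against 39.3, 48.6 and 53.2 RPKM (0.50, SE 0.15, adjusted p = 0.271, and 0.0262 with the block). The list thus held glypicans that moved in opposite directions. Its most abundant gene over all 6 libraries was the perlecan gene Hspg2, although Gpc4 stood above it in the 3 libraries under the KO label. Hspg2 stood at 80.9 ± 7.88 against 77.7 ± 4.78 RPKM (SD, n = 3; limma adjusted p = 0.981). The median of the 12 was -0.17.

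None of the 11 tested makers and editors of heparan sulfate passed, with or without the block, and voom also called 0. An unadjusted limma p under 0.05 was reached by 0 of them without the block and by 3 of the 11 with it, where 23.2% of all genes reached it. The most abundant was Sulf2, an enzyme that trims sulfate groups from the chains, at 66.6 ± 13.1 against 71.0 ± 6.74 RPKM (SD, n = 3; limma adjusted p = 0.959). The median of the 11 was 0.04. The plot of fold changes places these enzymes above the surface partners.

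**Figure D3:**
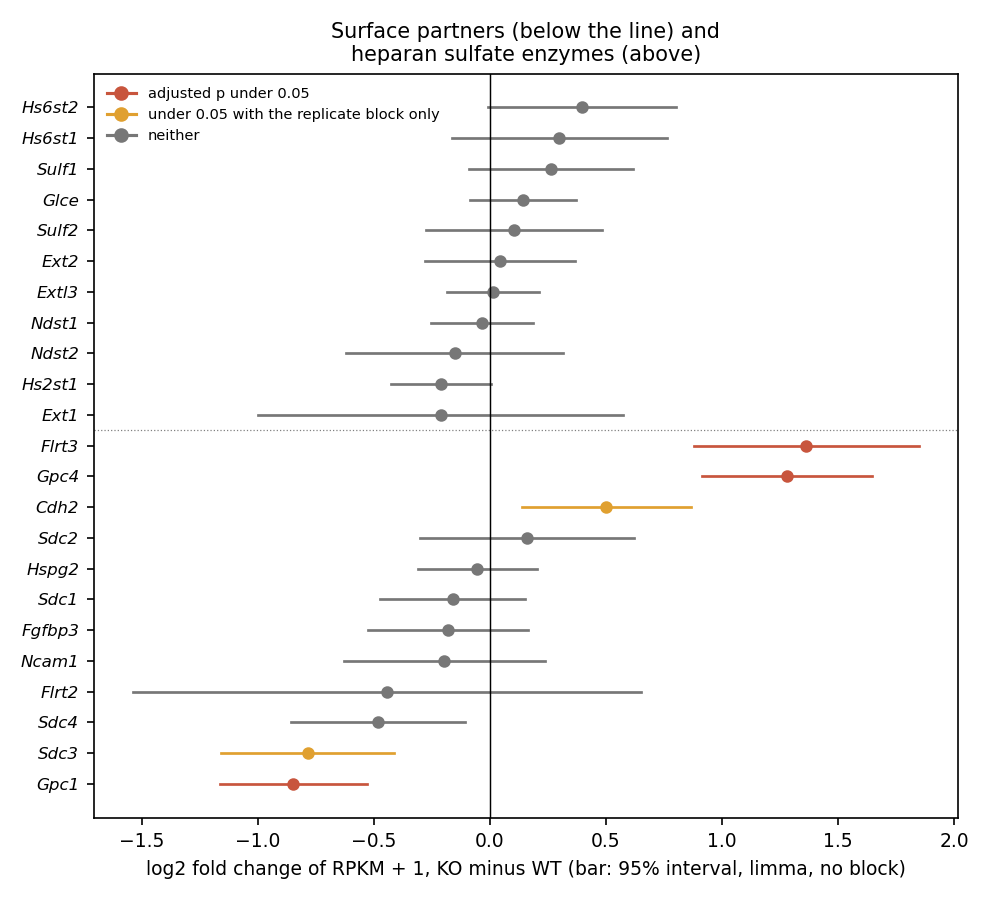
Log2 fold change of RPKM + 1 (KO-labelled minus WT-labelled, limma without a block, bars are 95% intervals) for the tested heparan sulfate enzymes (top) and FGF surface partners (bottom), with colour for an adjusted p under 0.05, under 0.05 with the replicate block only, or neither. Flrt3 (1.36) and Gpc4 (1.28) lie farthest to the right and Gpc1 (-0.85) farthest to the left, and all 11 enzyme intervals include 0.

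Of 22 adaptors and signal transducers 21 were tested, and none passed in limma without a block. There 3 had an unadjusted p under 0.05, against 9.91% of all genes tested, and voom called 0. Under the block 1 of the 21 passed, or 4.76%, which is below the 7.53% of all genes. It was the docking protein gene Gab1, which was higher. Gab1 stood at 6.53, 6.04 and 5.96 RPKM against 8.84, 8.22 and 8.04 RPKM, with no overlap (log2 fold change 0.38, SE 0.09, limma adjusted p = 0.135, and 0.0223 with the block). The most abundant of the list, the phosphatase gene Ptpn11, stood at 46.2 ± 5.45 against 45.8 ± 2.61 RPKM (SD, n = 3; limma adjusted p = 0.998). The median of the 21 was -0.01.

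Feedback genes and transcriptional targets of FGF signalling were the list with the most calls under the block. Of 17 in the table (not Spry3) 16 were tested, 13 of them with a lower mean log2 level and 3 with a higher one. Their median log2 fold change was -0.47. None passed in limma without a block, where 7 had an unadjusted p under 0.05, against 9.91% of all genes tested, and voom called 0. Under the block 8 passed, where 7.53% of all genes did: Spry1 was higher, and Spry2, Spry4, Spred2, Spred3, Etv4, Etv5 and Fosl1 were lower. With the block and no filter limma called 0 of the 17, and 2 of all 26231 genes. Of the 16, 11 were lower in 3 of 3 pairs, against 24.6% of all genes tested, and 2 were higher in 3 of 3 pairs, against 22.3%. Many growth factors besides FGFs act on these genes.

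Spry2, an inhibitor of receptor tyrosine kinase signalling, stood at 3.99, 13.6 and 4.51 RPKM against 2.52, 7.73 and 2.45 RPKM. Replicate 2 was the highest in both lines, so that the lines overlapped while every pair was lower (log2 fold change -0.64, limma adjusted p = 0.871, and 0.0109 with the block). Its relative Spry4 stood at 1.47, 2.74 and 1.83 RPKM against 0.651, 1.24 and 0.784 RPKM, without overlap (-0.66, adjusted p = 0.256, and 0.0127 with the block). Spred2, which holds back RAF activation, stood at 8.44, 7.20 and 9.15 RPKM against 5.09, 5.02 and 6.29 RPKM (-0.52, adjusted p = 0.165, and 0.0152 with the block). These 3 inhibitors were thus lower in every pair.

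The ETS factor Etv4 stood at 7.59, 14.7 and 8.67 RPKM against 2.39, 9.19 and 3.16 RPKM (log2 fold change -1.06, limma adjusted p = 0.492, and 0.0184 with the block). Spred3 stood at 2.44, 2.66 and 2.36 RPKM against 1.63, 1.70 and 1.44 RPKM (-0.43, adjusted p = 0.152, and 0.0284 with the block). The remaining 3 genes called under the block were Etv5 (-0.80), the AP-1 subunit gene Fosl1 (-1.04) and Spry1 (0.63), with block-adjusted limma p of 0.0286, 0.0414 and 0.0426. Spry1, whose values are given because it differed in direction and so were chosen after they were seen, stood at 4.14, 2.99 and 5.15 RPKM against 5.65, 6.86 and 7.999 RPKM, without overlap. Ccnd1, cyclin D1, was the most abundant of the list over all 6 libraries, although Egr1, given below, stood above it in both replicate 2 libraries. Ccnd1 stood at 56.6, 53.2 and 77.7 RPKM against 34.6, 41.8 and 30.3 RPKM, without overlap (-0.79, limma adjusted p = 0.150, and 0.0717 with the block).

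In this list the libraries of replicate 2 stood apart, and fold changes without a block moved with them. Without replicate 2 under the WT label and without replicate 2 under the KO label, the log2 fold change was -0.15 and -1.08 for Spry2 and -0.59 and -1.73 for Fosl1. Without KO-labelled replicate 1 or 3 it was -0.43 or -0.41 for Spry2, and without KO-labelled replicate 3 it was -0.59 for Fosl1. For 9 of the 16 genes both replicate 2 libraries lay above the other 4, against 16.8% of all genes tested. The early response gene Egr1, named here after its values were seen, stood at 9.24, 79.3 and 13.9 RPKM against 6.85, 44.9 and 4.78 RPKM. It did not pass with the block (limma adjusted p = 0.0564). The part of this replicate difference, and of the fibroblast marker levels given above, in the list's values was not tested. Without replicate 2 of both lines, limma without a block called 4 of the 16, in a fit that called 484 of all genes, or 4.37%. The plot of feedback genes joins same-numbered libraries.

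**Figure D4:**
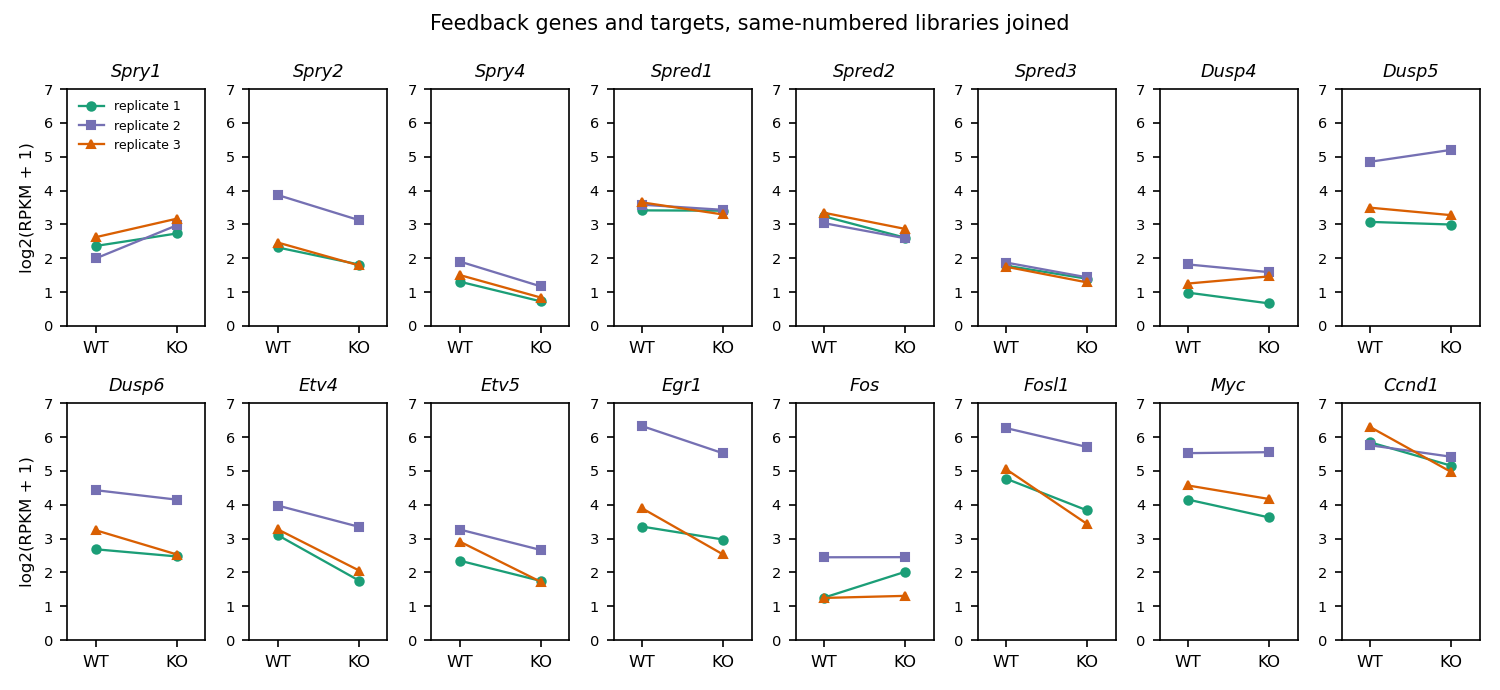
RNA level as log2(RPKM + 1) of the 16 tested feedback genes and targets of FGF signalling, a panel per gene, with the WT-labelled and KO-labelled library of each replicate number joined by a line. Replicate 2 (squares) lies well above the others for Spry2, Egr1 and Fosl1 among others, and the lines slope down in 3 of 3 replicates for 11 genes, Spry2, Spry4, Spred2, Etv4 and Etv5 among them.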

How the data were processed

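RNA of 6 libraries, 3 labelled MEF WT and 3 labelled MEF Nf2 KO, was sequenced and analysed by GENEWIZ. The authors deposited 1 table with a value per gene and library, on genome build mm10 by the submitters' processing notes. The deposited values were taken as RPKM from the values themselves, since the unit is named in neither the labels nor the study's methods. Column totals run from 250088 to 263424. Of the values worth up to 20 reads, 83.3% to 85.2% were whole reads within 0.05 when multiplied by GENCODE vM21 exon lengths, against 10% by chance, which also gave the depths. The aligner and the counting tool are not given in the sources used here, nor is strandedness. If read pairs were counted the values are FPKM, and reads here are pairs.

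The study's log2 scale after adding 1 was kept. A gene was tested if 3 or more libraries reached 1 RPKM, which left 11067 genes. These went through limma 3.58.1 in R 4.3.3 (trend and robust settings, no covariate, two-sided), their p-values were adjusted together by Benjamini-Hochberg, and 0.05 was the threshold. Fold changes on this scale understate the change of low genes. Single values were also compared by exact two-sided permutation tests of 3 against 3 libraries. The fit was also run on simulated data with planted changes larger than the limma fold changes of the tested members. That run does not show how well smaller changes are found. After subtracting line means, libraries with the same number correlated across genes at 0.552, 0.819 and 0.516 for replicates 1, 2 and 3. The numbers were therefore treated as pairing the libraries, and the value under a replicate block is given where it changed a call. Alternatives were other test settings, normalizations, pseudocounts and filters, the 2018 mark as a covariate, libraries left out, a stricter threshold and limma's voom on recovered reads. Voom called 146 of 11029 genes. Voom with the block and voom on genes with at least 10 reads in at least 3 libraries were added after seeing the data.

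The members and gene lists were chosen with earlier results of these data known. Genes named are the 10 members, Nf2, list genes past the threshold in limma with or without the block (values for the 5 with the smallest adjusted p per list), the most abundant gene of each list, and for Fgf7 and Fgfr1 the 3 genes most alike. Others are said to be chosen after their values were seen, apart from cell type markers and genes that share exons with a member. Positions and upstream sequences are RefSeq's (GRCm38.p6).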

Additional observations from a re-analysis of the deposited data

How the results depend on the processing

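Without a block limma called 117 of all genes, 0 of the members and 3 of the pathway genes. With the replicate block, which uses the pairing by number, it called 833, 1 and 14, and all 117 genes were among the 833. Pairing changed no call of a tested member other than that of Fgfr1. With voom and the replicate block the counts were 1175, 1 and 16. With voom and the filter of 10 reads 229 of all genes and 6 of the pathway genes were called, and with the block added 1641, 2 (Fgfr1 and Fgf18) and 22. With no filter 9 and 0 (all genes, pathway genes) were called, with no filter and the replicate block 2 and 0, with a filter of 5 RPKM 63 and 1, with the 2018 mark as a covariate 62 and 0, and at an adjusted p under 0.01 9 and 0. The fits that left out a library or a replicate number called 0 to 484 of all genes, 0 to 1 of the members and 0 to 8 of the pathway genes, the highest each time without replicate 2. Fewer samples enter those fits. Left-out libraries turned the direction of 4 tested members that did not pass, with log2 fold changes of -0.057 to 0.31 for Fgf7, -0.39 to 0.049 for Fgf10, -0.12 to 0.32 for Fgfr2 and -0.0050 to 0.26 for Fgfrl1, and of Nf2 (-0.030 to 0.091). The reversals came without replicate 1 for Fgf7 (-0.057), without replicate 3 for Fgf10 (0.049) and Fgfrl1 (-0.0050), without replicate 1 of the WT-labelled line (-0.042) or of both lines (-0.12) for Fgfr2, and without KO-labelled replicate 1 (-0.030) or replicate 1 of both lines (-0.0015) for Nf2. Fgfr1 stayed between -0.60 and -0.42 over the same fits. Fgf2 ran from -0.88 to -0.22, but it passed the filter only through the WT-labelled libraries, so its direction could not turn. Where a call moved with a setting other than a left-out library, the cause was not tested. Fgf5, Fgf21 and Fgfr3 are limited by depth, with at most 8, 13 and 119 reads in a library.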

Other observations

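The pathway genes under the filter of 1 RPKM whose lines did not overlap were L1cam, Flrt1, Gpc3, Etv1, Hs3st3b1 and Fgf13, named after their values were seen. Of all 26231 genes, 11.8% had lines that did not overlap. The neural adhesion gene L1cam stood at 0.789, 0.632 and 0.791 RPKM under the WT label and at 0.256, 0.212 and 0.249 RPKM under the KO label, from 30 to 356 reads. Flrt1, a relative of Flrt3, stood at 0.203, 0.162 and 0.234 RPKM against 0.0566, 0.0531 and 0.0514 RPKM, opposite in direction to Flrt3. The glypican Gpc3 stood at 0.0828, 0.0392 and 0.0425 RPKM against 0.308, 0.251 and 0.341 RPKM. The ETS factor Etv1 stood at 0.637, 0.504 and 1.16 RPKM against 0.241, 0.156 and 0.209 RPKM. The sulfotransferase gene Hs3st3b1 stood at 0.378, 0.290 and 0.439 RPKM against 0.268, 0.164 and 0.222 RPKM. Fgf13, an intracellular FGF homologous factor, stood at 0.0370, 0.0131 and 0.0488 RPKM and was listed at 0 in the 3 libraries under the KO label. These levels are low, and the genes were chosen for this pattern, so no test is given.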
